A study of Mus musculus with 6 samples.

Results

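The genes described here are 10 members of the Serpina cluster of the mouse, namely Serpina1a, Serpina1b, Serpina1c, Serpina1d, Serpina1e, Serpina3c, Serpina3k, Serpina3m, Serpina3n and Serpina6. They were taken by symbol from a deposited table of 52550 genes, in which 29 genes carry the name Serpina. The set was selected on the values of the stage difference, namely the much higher TPM of Serpina3k and Serpina3m at E18.5 than at E16.5, so the difference between the stages is given for its members as a description without a test. RNA was sequenced from GFP-positive liver cells of Sox9-GFP embryos on a CD-1 background, where green fluorescent protein marks cells with an active Sox9 gene, a gene of the biliary lineage. Both E16.5 and E18.5 were covered by 3 libraries (embryonic days 16 and 18 in the sample labels), called A, B and C at each stage, and all carried the same transgene without further treatment. Each library came from a pool of 15 livers, depleted of haematopoietic cells with magnetic beads and then sorted for GFP, so the spread between libraries is a spread between pools. Levels are in TPM (length-scaled transcript abundance that sums to 1000000 in each library), so that levels of different genes can be set side by side. Between libraries TPM depend on the whole composition of the RNA, and a second scaling is therefore given where it matters.

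Serpins are proteins that mostly inhibit serine proteases by offering an exposed reactive centre loop as bait, which the protease cleaves before it is trapped in an inactive complex. The liver secretes many of them into the plasma. In the mouse, the single human genes for alpha-1-antitrypsin and for alpha-1-antichymotrypsin correspond to groups of duplicated genes, called Serpina1 and Serpina3, and the duplicates differ most in the reactive centre loop. Serpina6 encodes corticosteroid-binding globulin, a serpin that carries glucocorticoids in the blood and does not inhibit proteases. Alpha-1-antitrypsin is a classical product of the hepatocyte lineage, to which hepatoblasts and hepatocytes belong.

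All 10 genes lay on chromosome 12 of the GRCm38 assembly, within 767.7 kb between positions 103646630 and 104414329. Serpina6 came first, at chr12:103646630-103657212 on the minus strand, and the 5 Serpina1 genes followed on the same strand, in the order b, d, a, c and e. Serpina3c was also on the minus strand, whereas Serpina3k, Serpina3m and Serpina3n lay on the plus strand at the far end of the cluster. Serpina3n ended it, at chr12:104406729-104414329. The gene models of Serpina3k and Serpina3m began at the same base and shared 60 bp of exon, which made up 2.92% of the exon length of Serpina3k. The model of Serpina1b spanned 102218 bp and enclosed Serpina1d. A stretch of 31.5% of the exon length of Serpina1c was overlapped by an antisense transcript, B430119L08Rik, and since the strand setting of the read counting is not given in the sources used here, reads of this gene may include those of its antisense partner.

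The coding sequences show how far the members can be told apart. Between Serpina1 genes, 96.3% to 98.5% of aligned coding bases were identical. Between the Serpina3 genes of the set the range was 82.9% to 91.7%, and between Serpina6 and the others it was 51.7% to 54.8%. The 45-base stretch with the most differing positions among the Serpina1 coding sequences is printed here because it encodes the reactive centre loop and shows in which part of the protein these otherwise near-identical genes diverge. Capitals mark the 17 of 45 positions that are not the same in all 5 genes. The stretches lie on the minus strand of GRCm38, in exon 6 of the Serpina1a transcript at chr12:103853757-103853801 and in exon 5 of the other transcripts, for Serpina1e at chr12:103947100-103947144, and are written 5′ to 3′.
Serpina1a: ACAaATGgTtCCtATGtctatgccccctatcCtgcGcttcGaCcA
Serpina1b: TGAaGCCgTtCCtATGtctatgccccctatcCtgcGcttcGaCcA
Serpina1c: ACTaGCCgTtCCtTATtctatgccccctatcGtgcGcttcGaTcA
Serpina1d: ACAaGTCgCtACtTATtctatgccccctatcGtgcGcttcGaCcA
Serpina1e: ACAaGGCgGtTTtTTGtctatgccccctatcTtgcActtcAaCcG

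The Serpina3 genes of the set diverged most in the same part of the protein, where 26 of 45 positions differed. This stretch lies in exon 5 of each gene, on the plus strand for Serpina3k (chr12:104345277-104345321), Serpina3m (chr12:104393777-104393821) and Serpina3n (chr12:104413456-104413500) and on the minus strand for Serpina3c (chr12:104147335-104147379). It is printed with the same use of capitals, since Serpina3k and Serpina3m, the members with the highest ratio of E18.5 to E16.5, carry different loops.
Serpina3c: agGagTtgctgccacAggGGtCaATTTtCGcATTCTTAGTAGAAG
Serpina3k: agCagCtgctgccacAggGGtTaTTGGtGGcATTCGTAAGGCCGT
Serpina3m: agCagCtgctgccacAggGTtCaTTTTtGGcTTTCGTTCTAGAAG
Serpina3n: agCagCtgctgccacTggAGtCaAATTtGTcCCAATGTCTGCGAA

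This similarity bears on the counts. Of all 100-base windows along the transcript of Serpina1c with the longest coding sequence, 30.7% occurred in no transcript of another gene in GENCODE vM21, on either strand, and the value was 50.1% for Serpina1a, 70.7% for Serpina1d, 79.4% for Serpina1b and 85.2% for Serpina1e. Among the Serpina3 genes of the set, at least 93.9% of windows were unique, and for Serpina6 all of them were. The read length is not given here, and shorter windows were less often unique. With 50-base windows the value was 20.7% for Serpina1c, 80.9% for Serpina3m, 86.0% for Serpina3k and 95.7% for Serpina3c. Of the 50-base windows of Serpina3m, 16.0% also occurred in Serpina3k. Levels of single Serpina1 genes are therefore uncertain, those of Serpina1a and Serpina1c most of all, since it is not given how reads that match several of them were counted. To a lesser degree the same limit applies to Serpina3k and Serpina3m.

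As recovered from the TPM, the E16.5 libraries held 23193537 to 26206374 reads and the E18.5 libraries 13093937 to 22643868. The labels call the cells cholangiocytes, and 10 of 12 cholangiocyte markers were higher at E18.5 (limma, adjusted p under 0.05, against 26.0% of all genes in that direction). After median-of-ratios scaling 5 of 12 were higher (6.82% of all genes), and 2 of 12 without the E18.5 library A. Their sum was 992 to 2988 TPM in the E16.5 libraries and 8907 to 14982 TPM in the others. Of these sums, Spp1 alone made up 469 to 1767 TPM at E16.5 and 6629 to 12121 TPM at E18.5. All libraries also held much RNA of the hepatocyte lineage: 12 hepatoblast markers, albumin among them, summed to between 175790 and 219595 TPM in the E16.5 libraries and to between 49330 and 99644 TPM in those of E18.5. The 8 megakaryocyte markers were all lower at E18.5, from 3191 to 9322 TPM down to 85.9 to 737 TPM, and the 8 pancreatic acinar markers reached 2416 TPM in one E16.5 library and 46.4 TPM at most at E18.5. No marker of the hepatoblast, cholangiocyte or megakaryocyte lists was at 0 in any library. In sorted bulk samples such as these, fewer cells of a type and less RNA per cell cannot be told apart.

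The 10 members together made up 0.996% ± 0.066 (SD, n = 3) of all TPM at E16.5 and 0.199% ± 0.083 at E18.5, a ratio of means of 5.02. The composition of this sum differed between the stages. Serpina6 contributed 70.4% ± 1.8 of it at E16.5, the Serpina1 genes 27.4% ± 1.4 and the Serpina3 genes of the set 2.11% ± 0.65. At E18.5 the Serpina1 genes contributed 49.99% ± 5.85, Serpina6 29.9% ± 19.2 and the Serpina3 genes 20.1% ± 14.0. In the E18.5 library C the Serpina3 genes reached 35.8% of the sum and Serpina6 was at 7.81%.

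**Figure D1:**
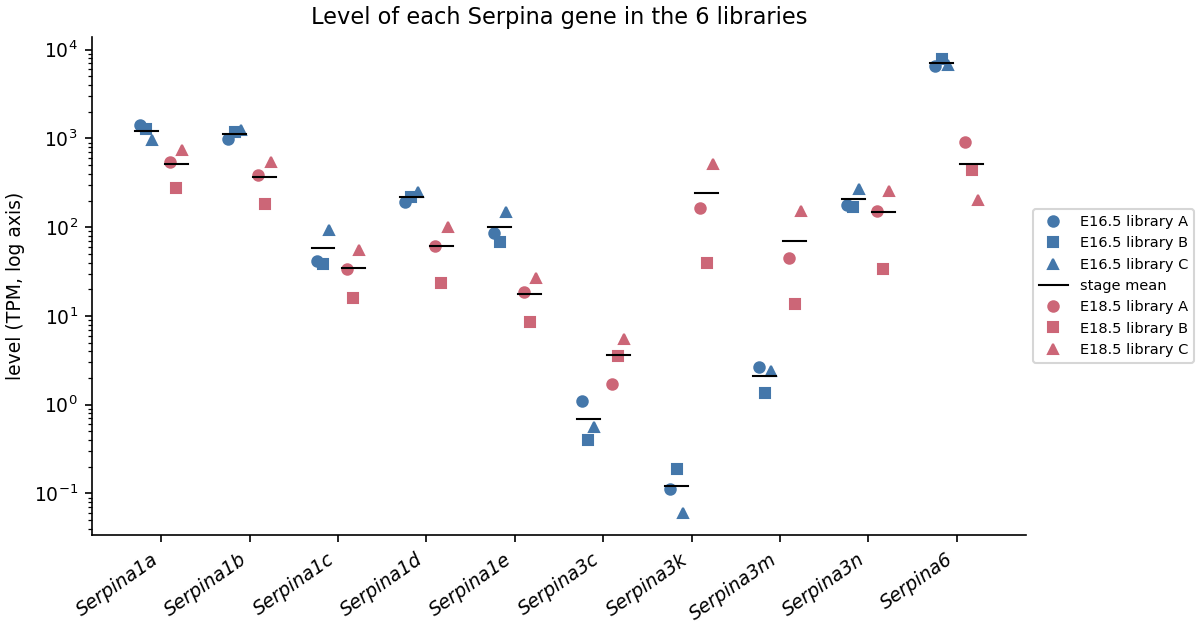
Level of each member in TPM on a log axis, one point for each library (blue, E16.5; red, E18.5; circle, square and triangle for libraries A, B and C) with a line at the stage mean. Serpina3k lies below 0.2 TPM in the 3 E16.5 libraries and between 39.2 and 516 TPM at E18.5, and Serpina6 lies at 6605 TPM or more at E16.5 and at 903 TPM or less at E18.5.

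Serpina3k encodes a serpin known as kallikrein-binding protein. Its levels at E16.5 were 0.113, 0.187 and 0.0609 TPM in libraries A, B and C, which rested on 2, 3 and 1 reads. At E18.5 they were 165, 39.2 and 516 TPM, which rested on 2326, 412 and 4314 reads. All E16.5 values were thus at or under the limit of 3 reads, a level of 0.170 to 0.187 TPM, and all E18.5 values were far above it. Over the pooled reads of each stage, the ratio of the shares of library reads was 1622, with an exact 95% interval of 745 to 4421 that covers counting error only. The mean at E18.5 was 240 TPM with an SD of 247, since library C was 13.2 times library B. On the log2(TPM + 1) scale the difference, E18.5 minus E16.5, was 7.08 with a standard error (SE) of 0.81. Serpina3k passed the filter on low values through its E18.5 libraries alone.

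Serpina3m, the neighbour whose gene model shares 60 bp of exon with that of Serpina3k, was at 2.65, 1.34 and 2.41 TPM in the E16.5 libraries. In those of E18.5 it was at 45.1, 13.8 and 154 TPM. The stages did not overlap, and the lowest E18.5 value was 5.21 times the highest E16.5 value. The ratio of means was 33.2 and the log2(TPM + 1) difference 3.94 (SE 0.76). Serpina3k and Serpina3m kept similar proportions at E18.5, where Serpina3k was 3.67, 2.85 and 3.36 times Serpina3m in libraries A, B and C, although both differed more than 10-fold between libraries B and C. At E16.5, in contrast, Serpina3m was the higher of both in every library. The part of reads that match both genes in the levels of Serpina3m and in these proportions was not tested.

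Serpina3n encodes an inhibitor of granzyme B and other proteases that is known as an acute phase protein. It was at 178, 168 and 272 TPM at E16.5 and at 154, 33.7 and 258 TPM at E18.5. These ranges overlapped, and the log2(TPM + 1) difference was -0.86 (SE 0.68). Without the E18.5 library B the difference was -0.01, so its size rested on that library. At E16.5, Serpina3n was thus the leading Serpina3 gene of the set, whereas at E18.5 it was at 0.931, 0.859 and 0.4999 times the level of Serpina3k.

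Serpina3c was low throughout, at 1.11, 0.406 and 0.567 TPM at E16.5 and at 1.72, 3.54 and 5.56 TPM at E18.5. The stages did not overlap, but the lowest E18.5 value was only 1.55 times the highest E16.5 value. The log2(TPM + 1) difference was 1.37 (SE 0.39). Like Serpina3k, it had a mean below 1 TPM at E16.5 and passed the filter through E18.5.

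The Serpina1 genes, which encode the forms of alpha-1-antitrypsin, an inhibitor of neutrophil elastase, summed to 2709, 2775 and 2698 TPM at E16.5. The SD was 41.4 TPM. At E18.5 they summed to 1038, 504 and 1473 TPM, and the highest of these values was below the lowest at E16.5. The mean at E16.5 was 2.71 times that at E18.5. Serpina1a and Serpina1b together accounted for 86.1% ± 3.7 of the sum at E16.5 and for 89.0% ± 1.5 at E18.5.

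Serpina1a was at 1408, 1279 and 971 TPM at E16.5 and at 537, 275 and 750 TPM at E18.5, with a log2(TPM + 1) difference of -1.33 (SE 0.36). Serpina1b was at 983, 1170 and 1239 TPM and then at 387, 182 and 540 TPM, a difference of -1.74 (SE 0.37). For both genes every E18.5 library was below every E16.5 library. Serpina1d was at 191, 219 and 248 TPM at E16.5 and at 61.6, 23.3 and 102 TPM at E18.5, with a difference of -2.02 (SE 0.47). Serpina1e had the largest log2 difference of the group, from 85.9, 67.8 and 147 TPM to 18.53, 8.47 and 26.6 TPM, a difference of -2.48 (SE 0.43) and a ratio of means of 5.61. Serpina1c was the exception, at 41.4, 39.0 and 93.7 TPM at E16.5 and 34.2, 15.8 and 55.4 TPM at E18.5, where the stages overlapped (-0.76, SE 0.50).

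Serpina6, corticosteroid-binding globulin, was the highest member at E16.5, at 6605, 7776 and 6695 TPM. At E18.5 it was at 903, 444 and 204 TPM. The lowest E16.5 library was 7.31 times the highest E18.5 library, the ratio of means was 13.6, and the log2(TPM + 1) difference was -4.01 (SE 0.49). At E16.5 its libraries differed by a factor of 1.18 at most, against 4.43 at E18.5.

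In order of mean level at E16.5, Serpina6 was followed by Serpina1a and Serpina1b, then by Serpina1d and Serpina3n, Serpina1e and Serpina1c, and finally Serpina3m, Serpina3c and Serpina3k. Within each of the pairs Serpina1a and Serpina1b, Serpina1d and Serpina3n, and Serpina1e and Serpina1c the ranges over libraries overlapped, whereas the steps between these groups did not overlap. At E18.5 the order was Serpina1a, Serpina6, Serpina1b, Serpina3k, Serpina3n, Serpina3m, Serpina1d, Serpina1c, Serpina1e and Serpina3c. There, neighbours overlapped in range all along the order except for Serpina3c, which stayed below Serpina1e in every library.

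Of the 10 members, 3 were past the threshold of adjusted p under 0.05 in the limma fit across all genes with higher values at E18.5 (Serpina3c, Serpina3k and Serpina3m), where 26.0% of all 22452 genes tested were past it in that direction. A further 5 were past it with lower values (Serpina1a, Serpina1b, Serpina1d, Serpina1e and Serpina6), where 5.22% of all genes were. The median difference over the members was -1.09, and that over all genes was 0.42. Because this contrast chose the set, nothing follows from these counts about the members. The median of all genes was above 0 on the TPM scale and at 0.01 after median-of-ratios scaling, and the calls turned with it, since 83.3% of all calls were higher at E18.5 with TPM and 39.5% after scaling. With voom on recovered reads, 0 members were past the threshold with higher values (8.74% of all genes) and 5 with lower values (11.6%). The members kept their direction under median-of-ratios scaling, with Serpina3k at 6.83, Serpina3m at 3.56 and Serpina6 at -4.46, while Serpina3c was no longer past the threshold. That left 2 members past it with higher and 5 with lower values, beside 6.82% and 10.5% of all genes.

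**Figure D2:**
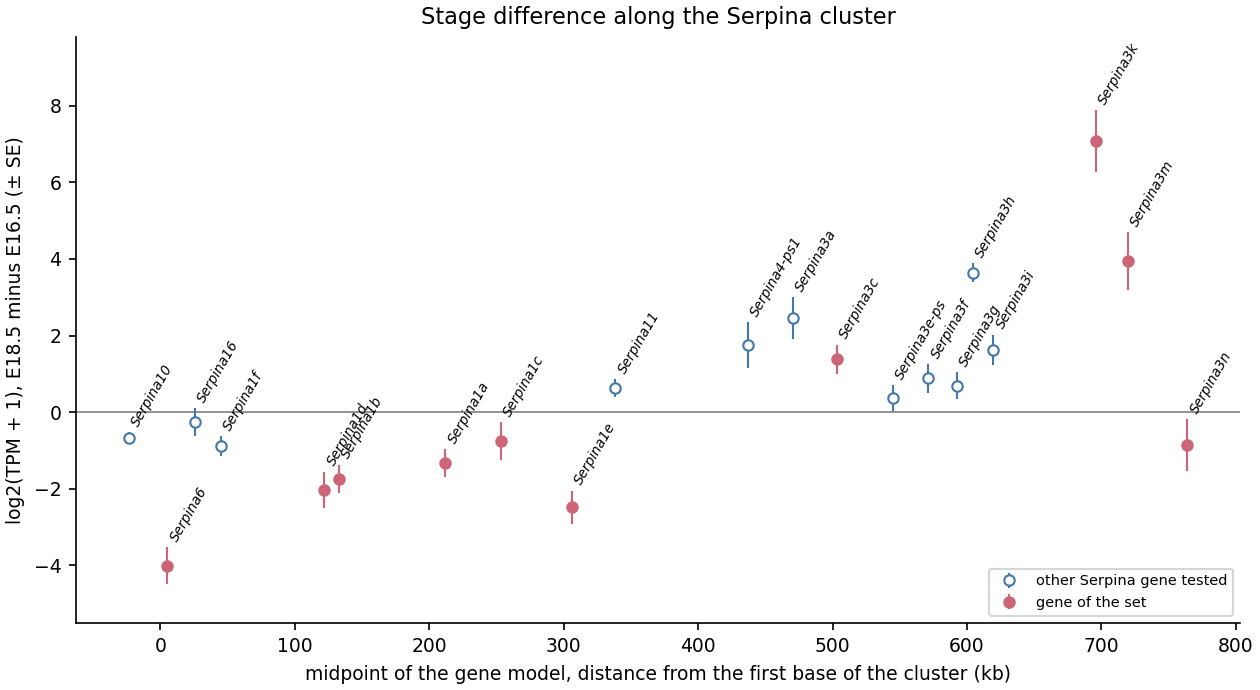
Difference in log2(TPM + 1), E18.5 minus E16.5, with its SE for 21 Serpina genes on chromosome 12 that passed the filter on low values (mean TPM of 1 or more), against the distance of the midpoint of the gene model from the first base of the cluster in kb (filled red, members; open blue, other Serpina genes). Values at or below -0.67 gather among the first genes and at Serpina3n, and the values of Serpina3k (7.08), Serpina3m (3.94) and Serpina3h (3.64) stand highest.

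The other Serpina genes were not used to choose the set, and their stage difference was tested in the same fit. Of these 19 genes, 12 reached a mean TPM of 1, and 5 of the 12 passed the test, 3 higher and 2 lower at E18.5, next to 31.2% of all genes tested in either direction. After median-of-ratios scaling 2 were higher and 2 lower, beside 6.82% and 10.5% of all genes. With voom on recovered reads the counts were the same, beside 8.74% and 11.6% of all genes. Serpina3h, annotated as a transcribed pseudogene, was at 4.15, 2.24 and 2.89 TPM at E16.5 and at 65.0, 38.9 and 46.5 TPM at E18.5. It rose by 3.64 in log2(TPM + 1) (SE 0.25, limma adjusted p = 0.0040) and so had the direction of Serpina3k and Serpina3m, but its E18.5 libraries were within a factor of 2 of each other.

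Serpina3a rose from 5.32, 3.65 and 0.673 TPM to 29.7, 20.8 and 11.1 TPM (2.46, SE 0.55, limma adjusted p = 0.020). Serpina3i, a low gene, rose from a mean of 1.001 TPM to 5.69 TPM (1.63, SE 0.39, limma adjusted p = 0.025), a call that was lost in 7 of 11 alternative fits, median-of-ratios scaling among them (adjusted p = 0.071). Serpina10, which encodes the protein Z-dependent protease inhibitor of the clotting system, fell from 301, 332 and 325 TPM to 244, 192 and 172 TPM (-0.67, SE 0.15, limma adjusted p = 0.020). Serpina1f fell from 2.30 to 0.785 TPM (-0.89, SE 0.26, limma adjusted p = 0.042), and this call was lost in 8 of 11 alternative fits.

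In the limma fit on TPM no change was called for the remaining 7, although Serpina4-ps1 passed in 2 alternative fits and Serpina11 and Serpina7 in 1 each. Serpina7, which encodes thyroxine-binding globulin, was at 21.1, 18.9 and 32.2 TPM at E16.5 and at 56.2, 14.9 and 49.0 TPM at E18.5 (0.55, SE 0.48, limma adjusted p = 0.40). Serpina11 had means of 57.0 and 91.4 TPM (0.63, SE 0.24, limma adjusted p = 0.079). The differences were 1.76 (SE 0.60) for Serpina4-ps1, 0.88 (SE 0.37) for Serpina3f, 0.69 (SE 0.35) for Serpina3g, 0.37 (SE 0.33) for Serpina3e-ps and -0.26 (SE 0.36) for Serpina16. Serpina4-ps1 was at 0.795, 4.26 and 8.80 TPM in E18.5 libraries A, B and C and so had the library order of Serpina3c.

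The promoters of the members could be compared for 7 genes, which the RefSeq table on GRCm38.p6 holds as windows from 250 bases before to 50 bases after the annotated start (none for Serpina3k, Serpina3m and Serpina6). The motifs named here were searched on both strands. The half-site AGAACA of the glucocorticoid receptor occurred in 7 of 7 windows and in 19.0% of all promoters. The C/EBP motif TTGCNNAA occurred in 4 of 7 windows and in 10.8% of all promoters, the TATA box TATAAA in 1 of 7 and in 14.2%, and the STAT motif TTCNNNGAA in 0 of 7 and in 8.47%. The Serpina1 windows are copies of each other, and the windows of Serpina3c and Serpina3n are also much alike, so the 7 windows are not independent of one another. These are matches of letters, which do not show binding.

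The genes of factors known to act on liver plasma protein genes were tested as a list of 24, of which 9 rose and 3 fell on the TPM scale, where 26.0% of all genes rose and 5.22% fell. After median-of-ratios scaling 5 were higher and 5 lower, beside 6.82% and 10.5% of all genes. With voom 4 were higher and 6 lower, beside 8.74% and 11.6%, so the balance depended on the scale. Socs2, which encodes a feedback inhibitor of growth hormone signalling, rose from 3.96, 4.47 and 1.42 TPM to 45.3, 48.9 and 38.6 TPM (3.48, SE 0.32, limma adjusted p = 0.0057). Onecut2, a liver and biliary transcription factor, rose from 77.5 to 238 TPM (1.70, SE 0.31, limma adjusted p = 0.014). Il6ra, which encodes the interleukin-6 receptor, fell from 25.3 to 9.31 TPM (-1.42, SE 0.32, limma adjusted p = 0.021), a call lost in 3 of 12 alternative fits. Jak2, named after its values were seen, and Hnf4a were the other 2 that fell. Il6st, also named after its values were seen, was among the 9 that rose, from 42.1 to 91.3 TPM (1.10, SE 0.12, limma adjusted p = 0.0076).

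Hnf4a, which encodes a central factor of the hepatocyte lineage, fell from 252, 247 and 255 TPM to 173, 126 and 197 TPM (-0.62, SE 0.17, limma adjusted p = 0.033), a call lost in 6 of 12 alternative fits. Nr3c1, which encodes the glucocorticoid receptor, rose from 50.8 to 74.8 TPM (0.55, SE 0.11, limma adjusted p = 0.016), but not after median-of-ratios scaling (adjusted p = 0.35). Stat3 was at 68.4 and 57.8 TPM (limma adjusted p = 0.31). Cebpa was at 74.1 and 84.9 TPM (0.17, limma adjusted p = 0.45), with the opposite sign after median-of-ratios scaling.

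Of the acute phase and plasma protease inhibitor genes outside the Serpina family, 26 of 31 were tested. Of these, 3 rose and 7 fell, where 26.0% of all genes rose and 5.22% fell. Their median difference was -0.93, next to 0.42 over all genes. After median-of-ratios scaling 1 was higher and 8 were lower, beside 6.82% and 10.5% of all genes. Saa4, an apolipoprotein of the serum amyloid A family, fell from 89.1 to 12.9 TPM (-2.94, SE 0.51, limma adjusted p = 0.012). Hpx, which encodes the haem carrier hemopexin, fell from 1384 to 519 TPM (-1.55, SE 0.43, limma adjusted p = 0.034), a call lost in 5 of 12 alternative fits. Saa3 fell from 5.78 to 0.288 TPM (-2.38, SE 0.32, limma adjusted p = 0.0089). The 3 genes that rose, named after their values were seen, were Cp, Crp and Steap4, and of these only Cp was called after median-of-ratios scaling.

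Among serpin genes of other clades, 15 of 39 were tested, 3 rose and 6 fell, where 26.0% of all genes rose and 5.22% fell. After median-of-ratios scaling 1 was higher and 6 were lower, beside 6.82% and 10.5% of all genes. Serpind1, which encodes the thrombin inhibitor heparin cofactor II, fell from 381, 377 and 478 TPM to 109, 35.4 and 151 TPM (-2.28, SE 0.49, limma adjusted p = 0.018). Serpinb2 fell from 34.7, 23.0 and 52.6 TPM to 0, 2.92 and 1.89 TPM (-4.00, SE 0.54, limma adjusted p = 0.0089). Serpinb10 fell from 33.1 to 2.43 TPM (-3.46, SE 0.60, limma adjusted p = 0.012). The summed megakaryocyte markers were also lower at E18.5, and their part in the last 2 results was not tested. The genes that rose, named after their values were seen, were Serpinb6a, Serpinb9 and Serpinh1, and of these only Serpinb6a was called after median-of-ratios scaling.

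**Figure D3:**
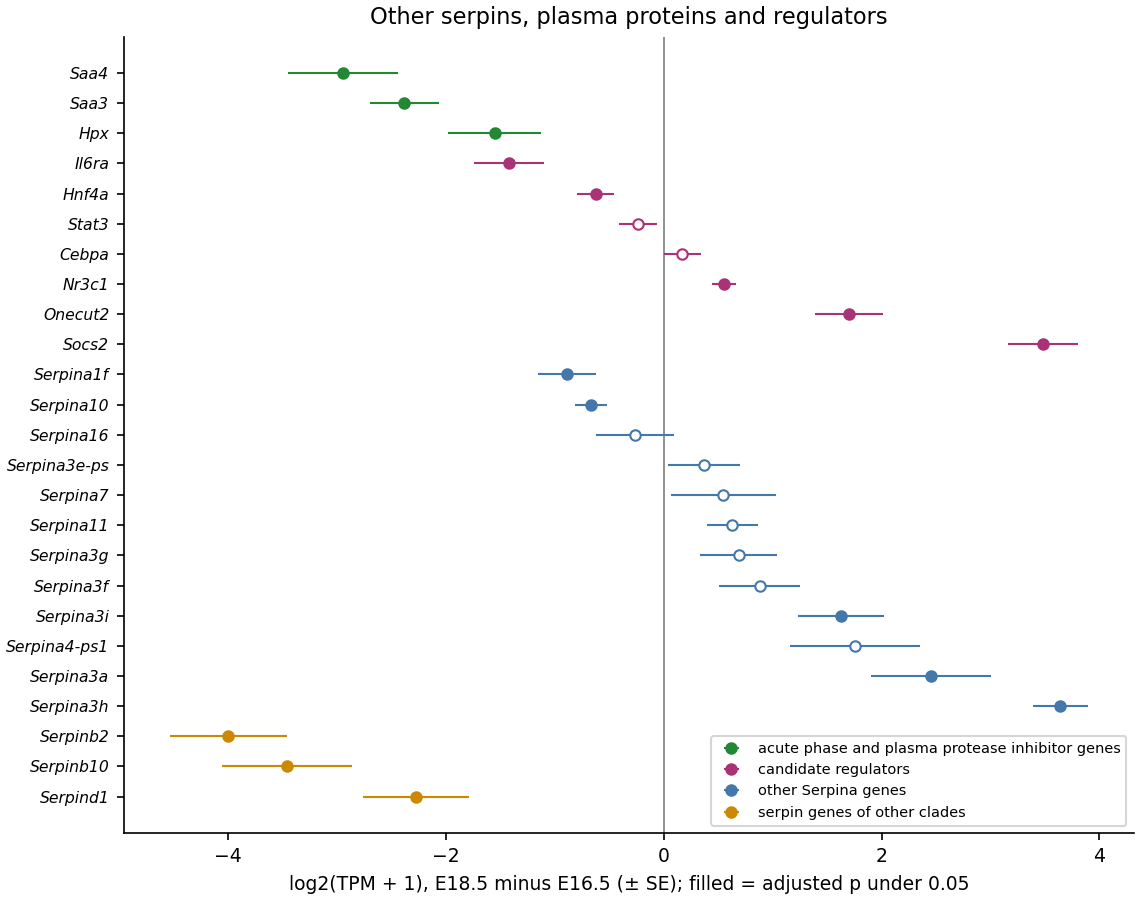
Difference in log2(TPM + 1), E18.5 minus E16.5, with its SE for named genes outside the set, coloured by list, with filled points for limma adjusted p under 0.05. Serpina3h (3.64) and Socs2 (3.48) stand highest and Serpinb2 (-4.00) and Serpinb10 (-3.46) lowest.

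For each of the 10 members the E18.5 libraries, which held fewer reads, differed by a larger factor than the E16.5 libraries did. The factors of Serpina3c were close (3.24 and 2.73), and that of Serpina3k at E16.5 rested on 1 to 3 reads. The share of all genes with this trait is not given here, so nothing particular to the members follows from it. For 8 of the 10 members the order was C above A above B, an order that 13.1% of all 22452 genes tested had. The exceptions were Serpina3c, with C above B above A, and Serpina6, with A above B above C. The ratio of library C to library B was 13.2 for Serpina3k, 11.2 for Serpina3m, 7.67 for Serpina3n and 2.73 to 4.37 for the Serpina1 genes, but 0.459 for Serpina6.

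The summed hepatoblast markers had the same order, at 90440 TPM in library A, 49330 TPM in B and 99644 TPM in C. Albumin made up most of each of these sums (60258, 30024 and 70152 TPM). Most single genes of the list had this order too, but Afp (4857, 2214 and 4573 TPM) and Vtn were highest in library A. Gc had the order of Serpina6 (8491, 6822 and 6526 TPM). The summed perinatal hepatocyte markers also ran C above A above B, at 1404, 750 and 2047 TPM in A, B and C. The summed megakaryocyte markers were highest in library B (737 TPM, against 85.9 and 208 TPM in A and C). So were the summed erythroid, leukocyte and acinar markers, although single genes of these lists, such as Csf1r and Cd68, were not. The cholangiocyte markers summed to 12717, 14982 and 8907 TPM, and Spp1 made up most of each of these sums. The part of cell composition in the spread of the members was not tested.

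**Figure D4:**
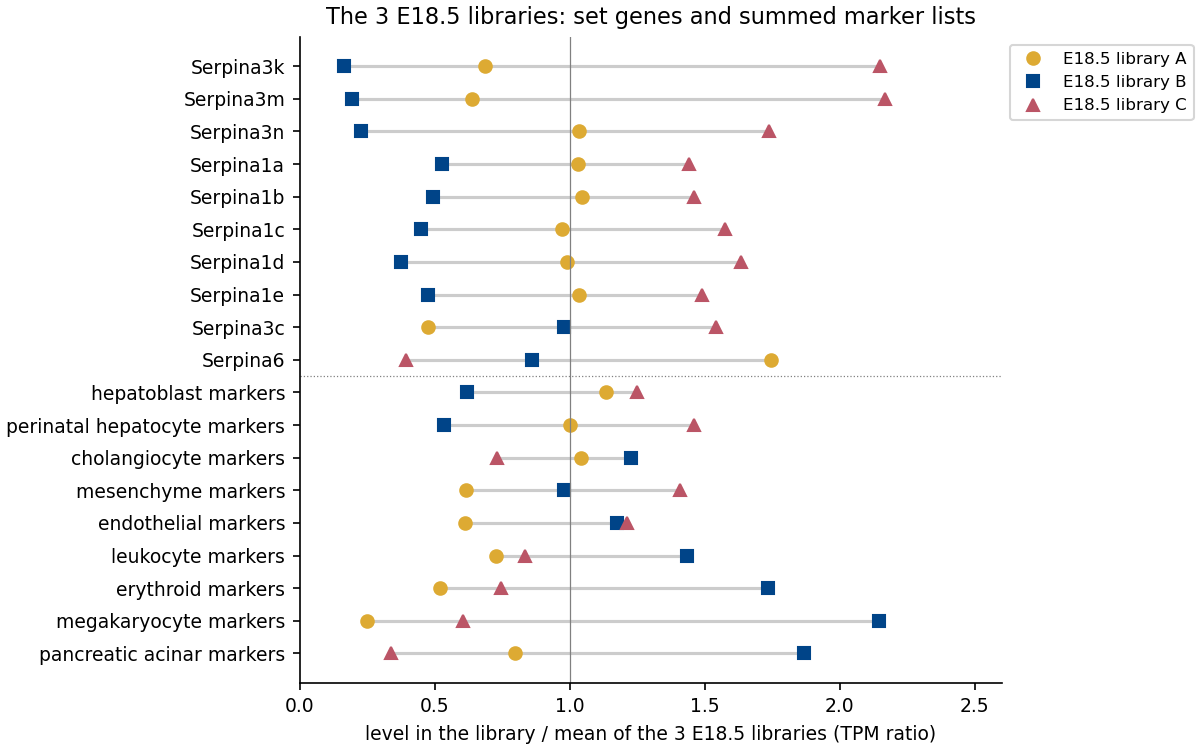
Level of each member and summed level of each marker list in the 3 E18.5 libraries, as a ratio to the mean of these libraries (yellow circle, A; blue square, B; red triangle, C). Library B is lowest for 8 members and for the hepatoblast and perinatal hepatocyte markers and highest for the megakaryocyte, acinar, erythroid and leukocyte markers.

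Each member was also set against the summed hepatoblast markers of its own library, a scale chosen after the data were seen. Per 1000 TPM of hepatoblast markers, Serpina1a was at 8.01, 6.83 and 4.42 TPM at E16.5 and at 5.94, 5.57 and 7.52 TPM at E18.5. These ranges overlapped, and the means were 6.42 and 6.34. Serpina1b differed by a factor of 1.31 and Serpina1d by 1.56 on this scale, both with lower values at E18.5. Serpina1e stayed lower, by a factor of 2.36. Serpina6 went from 37.6, 41.5 and 30.5 TPM per 1000 TPM to 9.99, 9.01 and 2.05 TPM, a factor of 5.21. Serpina3m was 69.9 times as high at E18.5. The means of Serpina1a were thus close on this scale, but its E16.5 libraries ranged from 4.42 to 8.01. Serpina6, Serpina1e, Serpina1d and Serpina1b were lower at E18.5 on this scale, with stages that did not overlap. Levels of single Serpina1 genes are uncertain here too, as described above. The markers themselves differed between the stages to unequal degrees, with ratios of means, E16.5 over E18.5, of 7.10 for Afp, 2.44 for Alb and 0.994 for Gc. The scale is dominated by albumin, and no error for its choice of genes is included.

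**Figure D5:**
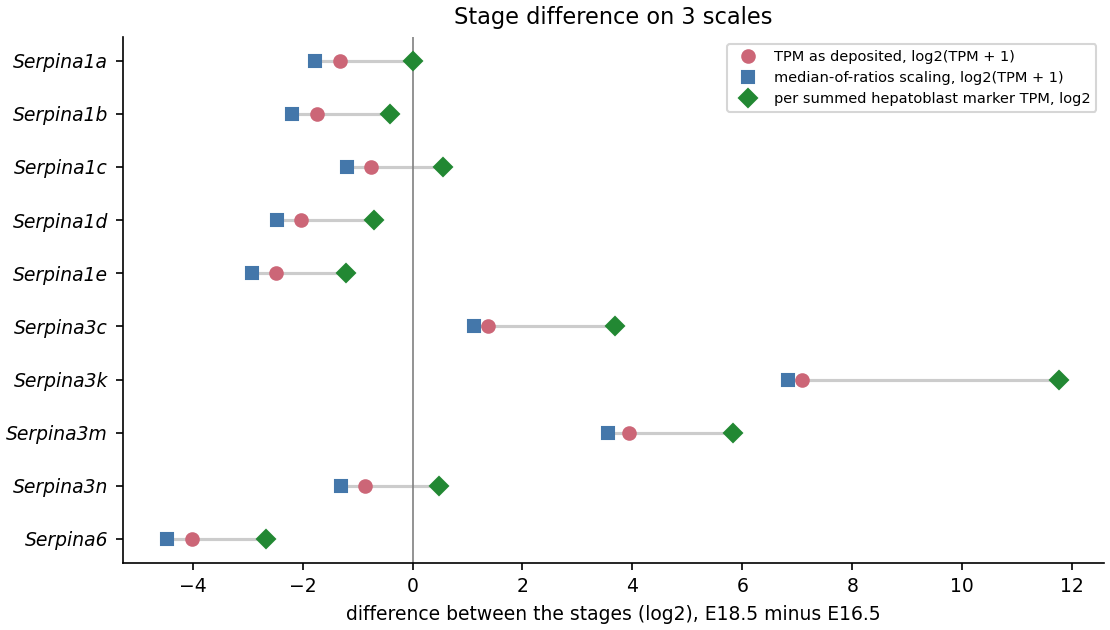
Difference between the stages on a log2 scale, E18.5 minus E16.5, for each member on 3 scales (red circle, TPM as deposited; blue square, after median-of-ratios scaling; green diamond, per summed TPM of hepatoblast markers). Serpina1a lies at -1.33, -1.78 and 0.01, Serpina6 at -4.01, -4.46 and -2.67, and Serpina3m at 3.94, 3.56 and 5.82. The third scale has no pseudocount, so for low genes such as Serpina3k, Serpina3m and Serpina3c part of the step to it comes from that.

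The genes outside the set with the pattern most like that of Serpina3k over the 6 libraries, by Pearson r on log2(TPM + 1) among 15361 genes whose mean TPM was 5 or more, were St3gal5 (r = 0.998), Ddx3x (0.997), Rnf122 (0.996), Adamtsl4 (0.996) and Skil (0.996). St3gal5, which encodes the ganglioside GM3 synthase, was at 39.1, 40.1 and 38.4 TPM at E16.5 and at 93.5, 79.0 and 121 TPM at E18.5. It had the library order of Serpina3k but a much smaller range. The genes most like Serpina1a were Acadvl (r = 0.991), Mir6392 (0.990), Bpifb1 (0.987), Inhbc (0.981) and Shmt2 (0.981). Acadvl, which encodes a mitochondrial fatty acid dehydrogenase, was at 72.9, 69.5 and 67.5 TPM at E16.5 and at 58.8, 48.4 and 64.3 TPM at E18.5. The r values rest on 6 libraries in 2 stages, and a difference between the stages alone can raise r for many genes. They are therefore given as a description.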

How the data were processed

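RNA sequencing of 6 libraries of sorted cells was used. The authors trimmed reads, aligned them to GRCm38 (HISAT2 2.1.0), counted reads of GENCODE vM15 genes (HTSeq 0.5.4p3) and deposited TPM computed from these counts. The kit is stranded, but the strand and multiple mapping settings of the counting are not given in the sources used here. The TPM were multiplied by exon length (GENCODE vM21) and divided by the value of 1 read, which gave whole numbers within 0.01 for 100% of values checked. These reads served for depth and intervals. No pair of libraries of a stage agreed within sampling noise.

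E18.5 was compared with E16.5 by moderated linear models (limma 3.58.1, R 4.3.3, with a mean-variance trend) of log2(TPM + 1). The 22452 genes whose mean TPM was 1 or more entered, and p-values were adjusted over all of them (Benjamini-Hochberg). Fold changes on this scale understate those of low genes. The limma step was tested on simulated data. Coding sequences were aligned with MAFFT 7.526, and 95% intervals are exact (Clopper-Pearson).

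The members and lists were chosen with earlier results of these data known. Besides the members, the named genes are the other Serpina genes tested, the 3 largest changes with adjusted p under 0.05 and at least 5 TPM in the higher stage of each list, 5 regulators whatever their values, and the 5 genes nearest to Serpina3k and Serpina1a; results for some of these are not reported here. Alternatives were a pseudocount of 0.1, no filter, a minimum of 5 TPM, median-of-ratios scaling, voom on recovered reads, a replicate block and leaving out each library. The ratio to hepatoblast markers was added after seeing the data.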

Additional observations from a re-analysis of the deposited data

How the results depend on the processing

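The 10 members kept the sign of their difference in each of 12 alternative fits (11 for Serpina3c). The difference of Serpina3k ranged from 6.19 to 9.51, that of Serpina3m from 3.08 to 4.78, that of Serpina6 from -4.54 to -3.46, and that of Serpina3n from -1.46 to -0.01. With voom on recovered reads, 0 members were past the threshold with higher values and 5 with lower values, beside 8.74% and 11.6% of all genes. The number of genes past the threshold was 7000, and it was 4282 without a filter on low values, 3865 after median-of-ratios scaling, 4159 with voom, and 1472 (without E18.5 library A) to 5686 when 1 library was left out. Of the other Serpina genes, 3 passed without a filter and 3 at a minimum of 5 TPM, and 3 to 4 when 1 library was left out, where leaving out the E16.5 library A gave 3. With 1 library left out, serpin genes of other clades past the threshold numbered 3 to 7 and candidate regulators 2 to 10, against 9 and 12 with all libraries, and both were lowest without the E18.5 library A. Acute phase and plasma protease inhibitor genes numbered 6 without a filter, and 4 to 12 with 1 library left out. Cebpa was at -0.28 after median-of-ratios scaling and at -0.29 with voom, against 0.17. Serpina16 ranged from -0.47 to 0.018 in 2 fits that each left out 1 library. Relative to the hepatoblast markers, the median over the members was 0.24, and Serpina1a was at 0.014, Serpina1c at 0.56 and Serpina3n at 0.47. The cause of these shifts was not tested.

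The deviations of libraries with the same letter had low r (-0.08, 0.10 and 0.22), against -0.20 to 0.14 between libraries with different letters. The letters were not taken as pairs, although these values cannot settle whether they were. With the replicate block, 7314 genes passed the threshold. With 3 pools in each stage the precision was limited, and the values of Serpina3k at E16.5 rested on 6 reads in all.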

Other observations

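Proteases that the members or related serpins are known to inhibit were looked at as a list of 12, of which 10 were tested. None passed the threshold in limma (2 had an unadjusted p under 0.05). After median-of-ratios scaling 2 fell, beside 10.5% of all genes, and with voom on recovered reads 1 fell, beside 11.6%. Elane, the gene of neutrophil elastase, was at 1.54, 2.48 and 0.892 TPM at E16.5 and at 1.19, 18.3 and 2.002 TPM at E18.5. Its high value was that of E18.5 library B, which was also highest in the summed leukocyte markers (201 TPM, against 102 and 117 TPM). Csf1r and Cd68 of that list were lowest in library B. Klkb1, the gene of plasma kallikrein, was at 50.9, 53.2 and 61.8 TPM at E16.5 and at 46.8, 28.7 and 55.2 TPM at E18.5. Klk1, another kallikrein gene of the list, was at 15.4, 2.86 and 0.233 TPM at E16.5. At E18.5 it was at 0, 0.727 and 0 TPM (limma adjusted p = 0.14). These genes are named after their values were seen.

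Of 12 perinatal hepatocyte markers, 2 rose, 1 fell and 9 did not pass the test, where 26.0% of all genes rose and 5.22% fell. G6pc, which encodes the catalytic subunit of glucose-6-phosphatase, rose from 4.40, 6.43 and 8.36 TPM to 108, 36.2 and 103 TPM (3.38, SE 0.43, limma adjusted p = 0.0085). Otc of the urea cycle fell from 106 to 35.7 TPM (-1.85, SE 0.57, limma adjusted p = 0.047), a call lost in 7 of 12 alternative fits.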
